A study of Mus musculus with 4 samples.

Results

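The genes described here encode the subunits of the mitochondrial respiratory chain and the ATP synthase. They were taken by symbol: every probe set whose annotated gene symbol began with Nduf, Uqcr, Atp5, Cox4, Cox5, Cox6, Cox7 or Cox8, or was Sdha, Sdhb, Sdhc, Sdhd or Cyc1. Cox7a1 and Cox8b, which are isoforms of muscle and brown fat, were left out, as were 8 probe sets annotated with several symbols. The rule found 155 probe sets for 83 genes, out of 12394 genes with a symbol of their own on the array, and each gene was represented by its brightest probe set. After a filter on low signal, described below, 80 of the 83 genes and 7836 of the 12394 genes remained. The Nduf symbols also bring in complex I assembly factors, which help to build the complex without being part of it.

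The respiratory chain sits in the inner mitochondrial membrane. Complexes I and II take electrons from NADH and succinate, complex III passes them to cytochrome c, and complex IV hands them to oxygen, while complexes I, III and IV pump protons that drive the ATP synthase. Most subunits are encoded in the nucleus and are expressed in nearly all cells, at higher levels in tissues rich in mitochondria such as muscle and brown fat, and a few have isoforms that belong to particular tissues.

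Mammary gland RNA was profiled on 4 Affymetrix arrays, each hybridised with 1 pool of RNA from 5 mice. The animals were nulliparous females of the FVB background, either transgenic for PPARd, the nuclear receptor PPARδ, driven by the MMTV promoter of mouse mammary tumour virus, which is active chiefly in mammary epithelium (MMTV-PPARd), or wild-type (WT) littermates of matched age. Each genotype received standard chow or, for 1 week, chow with GW501516, a synthetic PPARδ agonist. The 4 groups are therefore WT chow, MMTV-PPARd chow, WT GW501516 and MMTV-PPARd GW501516. The labels give the GW501516 content as 0.005% in the treatment description and as 0.001% in a treatment tag, and the ages are not given in the sources used here. With 1 array per group there is no replicate error and no test. A difference of 1.5-fold between 2 arrays was used as a call, and each count of calls is given beside the share of all 7836 genes that passed the same limit. RNA came from whole tissue, so fewer cells of a type and less RNA per cell cannot be told apart.

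Ppard itself, the gene of the transgene, had intensities of 2.1 on the WT chow array, 1943 on MMTV-PPARd chow, 1.5 on WT GW501516 and 4224 on MMTV-PPARd GW501516, as the labels say. All arrays had been scaled to the same trimmed mean of 500.2. The MMTV-PPARd chow array stood apart, at high signal and in its controls. Its brightest probe set read 14309, against 19396 to 21520 on the other arrays. Of the probe sets for bacterial or phage controls, 11 had an intensity of at least 1000 on the WT chow array. They cover only the transcripts bioC, bioD and cre, so they are not independent. On the MMTV-PPARd chow array 11 of 11 were lower, with a median log2 difference of -0.43. The same controls had a median of 0.11 between the GW501516 arrays of the 2 genotypes. At lower signal, the 6 probe sets of the bioB control read 292.7 to 507.6 on WT chow and 19.3 to 41.6 on MMTV-PPARd chow. Their median log2 difference was -3.91, against 0.17 between the GW501516 arrays. Of the 80 genes, 57 had a mean intensity of at least 4096, so each comparison with the MMTV-PPARd chow array is given beside the comparisons without it. The marker lists of other cell types also moved. Skeletal muscle markers (21 of 21 measured) summed to 16549 on WT chow, 41237 on MMTV-PPARd chow, 157703 on WT GW501516 and 149823 on MMTV-PPARd GW501516, while the 7 T cell markers measured summed to 6290, 2407, 1169 and 1095 on the same arrays.

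The upstream sequences of 4 genes whose values are described in detail below are shown first: the 3 genes that encode the same mature c subunit of the ATP synthase, and Cox7a2l, a factor that joins complexes III and IV into supercomplexes. Each is the 250 bases before the annotated start site, from RefSeq on GRCm38.p6, and all 4 genes lie on the minus strand. Capitals mark matches to motifs searched on both strands, which were NRF1 (GCGCANGCG), GABP of the ETS family (CCGGAAG), YY1 (AAGATGG), ERR (TCAAGGTCA), the nuclear receptor half-site (AGGTCA), a core of muscle factors (CAGCTG), the CCAAT box (CCAAT) and the TATA box (TATAAA). The ERR motif contains the half-site, so each ERR match is also a half-site match. Atp5g1 is at chr11:96075632-96075881, Atp5g2 at chr15:102671048-102671297, Atp5g3 at chr2:73911327-73911576 and Cox7a2l at chr17:83514334-83514583.
Atp5g1: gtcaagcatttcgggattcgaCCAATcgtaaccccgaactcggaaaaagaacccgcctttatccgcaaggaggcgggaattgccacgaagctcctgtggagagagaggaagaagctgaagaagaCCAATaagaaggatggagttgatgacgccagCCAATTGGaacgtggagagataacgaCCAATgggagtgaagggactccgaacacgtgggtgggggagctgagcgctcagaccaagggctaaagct
Atp5g2: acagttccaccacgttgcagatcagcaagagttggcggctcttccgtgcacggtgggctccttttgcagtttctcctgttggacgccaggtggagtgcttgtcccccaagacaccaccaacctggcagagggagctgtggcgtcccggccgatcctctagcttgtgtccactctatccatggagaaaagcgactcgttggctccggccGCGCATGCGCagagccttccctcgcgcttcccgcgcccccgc
Atp5g3: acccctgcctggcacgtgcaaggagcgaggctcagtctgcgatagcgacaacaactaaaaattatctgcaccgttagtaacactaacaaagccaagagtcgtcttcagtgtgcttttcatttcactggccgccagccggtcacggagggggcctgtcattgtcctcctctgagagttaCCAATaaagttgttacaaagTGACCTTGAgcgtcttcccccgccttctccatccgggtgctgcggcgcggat
Cox7a2l: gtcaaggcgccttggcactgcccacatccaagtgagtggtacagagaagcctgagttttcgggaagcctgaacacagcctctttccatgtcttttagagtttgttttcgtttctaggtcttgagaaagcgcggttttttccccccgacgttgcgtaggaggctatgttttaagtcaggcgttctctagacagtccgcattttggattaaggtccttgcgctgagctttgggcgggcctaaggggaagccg
The Atp5g1 window held 5 CCAAT matches, one of them on the opposite strand and overlapping another. The Atp5g2 window held overlapping NRF1 matches on both strands, and the Atp5g3 window held a CCAAT match and the only ERR match among the windows of these genes. The Cox7a2l window held none of these letters, which says nothing of the factors.

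Upstream windows were on file for 68 of the 83 genes, with 73 windows, and for 32851 start sites of all genes. NRF1, a regulator of nuclear genes for mitochondrial proteins, matched 17.8% of the windows of these genes and 5.16% of all windows. The GABP motif matched 17.8% and 6.91%, ERR 1.37% and 0.387%, CCAAT 38.4% and 33.8%, YY1 1.37% and 4.49%, and TATAAA 9.59% and 12.4%. The half-site, which PPARs share with other nuclear receptors, matched 11.0% of the windows of these genes and 14.0% of all. A direct repeat of it with 1 base between, the arrangement bound by PPAR with RXR, matched 0 of 73 windows and 0.0335% of all. CAGCTG matched 6.85% and 13.0%. A match is a description of letters only.

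Most respiratory chain genes differed little between any 2 arrays. With GW501516 in WT mice, their median log2 difference was 0.028, against -0.037 over all 7836 genes, with 50 genes above 0 and 30 below. The sign of this small median turned after quantile normalization (-0.0067) and with arrays centred on bright genes (-0.068), a scaling described below. The genes also lay close together, with an interquartile range of 0.16 against 0.42 for all genes. For 392 genes outside the set with a mean intensity of at least 4096 it was 0.27. Cox6a2 and Atp5g1 rose by at least 1.5-fold, which is 2 of 80 genes beside 6.85% of all genes. By that factor 0 of 80 were lower, beside 7.27% of all. Of the 392 bright genes, 24 were higher and 8 lower by that factor. In MMTV-PPARd mice the median with GW501516 was 0.22, against -0.034 over all genes, with 67 genes above 0 and 13 below. It was 0.043 (48 above, 32 below) after quantile normalization and 0.048 (50 above, 30 below) with bright-gene centring. The 392 bright genes outside the set had a median of 0.22 as deposited. In these mice Cox6a2, Atp5g1, Cox6b2 and Atp5j rose by at least 1.5-fold (4 of 80, beside 10.1% of all genes). By that factor 0 of 80 fell, beside 12.0% of all, while 49 of the 392 bright genes rose and 7 fell.

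The transgene comparisons differed between diets. On chow, 73 of 80 genes were lower in MMTV-PPARd than in WT and 7 were higher, with a median of -0.26 against 0.020 over all genes. Only 3 of the 80, Cox6b2, Ndufv1 and Uqcrc1, were lower by at least 1.5-fold, beside 11.2% of all genes, and only Cox6b2 remained so with bright-gene centring, while only Cox6a2 was higher by that factor, beside 12.3%. Cox6b2 passed the low-signal filter only through its WT chow value, so its calls that use that array are not independent of the filter. On GW501516 the median was -0.061 against 0.00155 over all genes, with 30 genes above 0 and 50 below, and bright-gene centring turned its sign (0.012). One gene, Atp5g1, was at least 1.5-fold higher (beside 7.48% of all genes) and one, Ndufs1, at least 1.5-fold lower (beside 5.31%). For the difference between the GW501516 effects of the 2 genotypes, MMTV-PPARd minus WT, the median was 0.22, beside 0.17 for the 392 other bright genes. It was 0.052 after quantile normalization and 0.10 with the mean over probe sets. Cox6b2 exceeded 1.5-fold upward (1 of 80, beside 13.0% of all genes), and Cox6a2 and Ndufaf5 did so downward (2 of 80, beside 13.0%). The comparisons share arrays and are therefore given as values side by side.

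**Figure D1:**
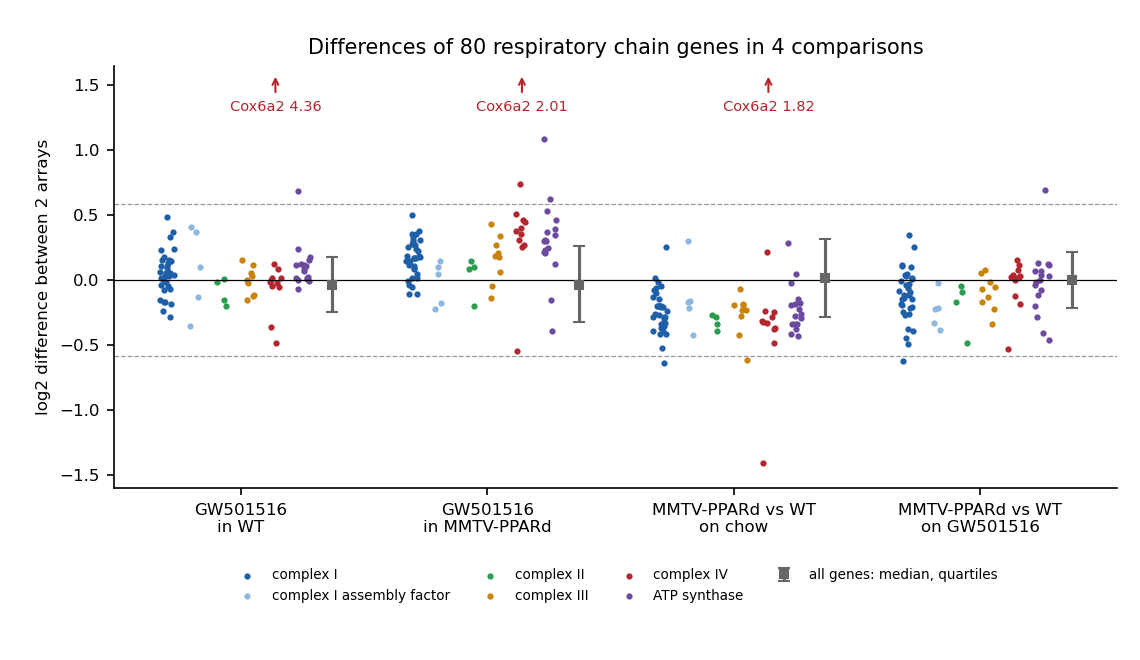
Log2 differences of the 80 respiratory chain and ATP synthase genes (points, coloured by complex) in 4 comparisons of 2 arrays each, beside the median and quartiles of all 7836 genes (grey squares with bars). Dashed lines mark 1.5-fold, arrows mark Cox6a2 values beyond the axis, and 73 of 80 points lie below 0 for MMTV-PPARd against WT on chow.

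On chow the difference was larger at high signal. The 57 respiratory chain genes with a mean intensity of at least 4096 had a median of -0.28 for MMTV-PPARd against WT on chow, and 392 other genes as bright had a median of -0.18, with 288 of the 392 below 0. On GW501516 the medians were -0.037 and -0.0022. Cytosolic ribosomal protein genes (48 measured), which are also bright, had medians of -0.23 on chow, which turned to 0.032 after quantile normalization, and 0.091 on GW501516. After quantile normalization the chow median of the 80 genes was -0.097, with 63 below 0. With arrays centred on the bright genes outside the set, a scaling chosen after seeing the data, it was -0.11 with 64 below 0, while the median of the 392 bright genes was -0.040, the median of all genes became 0.17 and the share of all genes above 0 went from 51.8% to 65.0%. In the comparison that leaves the MMTV-PPARd chow array out and spans both factors, MMTV-PPARd GW501516 against WT chow, the median was -0.028. Atp5g1 and Cox6a2 were higher by at least 1.5-fold in it (2 of 80, beside 10.3% of all genes) and Cox6b2, which passed the filter only through WT chow, was lower (1 of 80, beside 9.95%). The part of signal compression in the chow result was not tested.

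**Figure D2:**
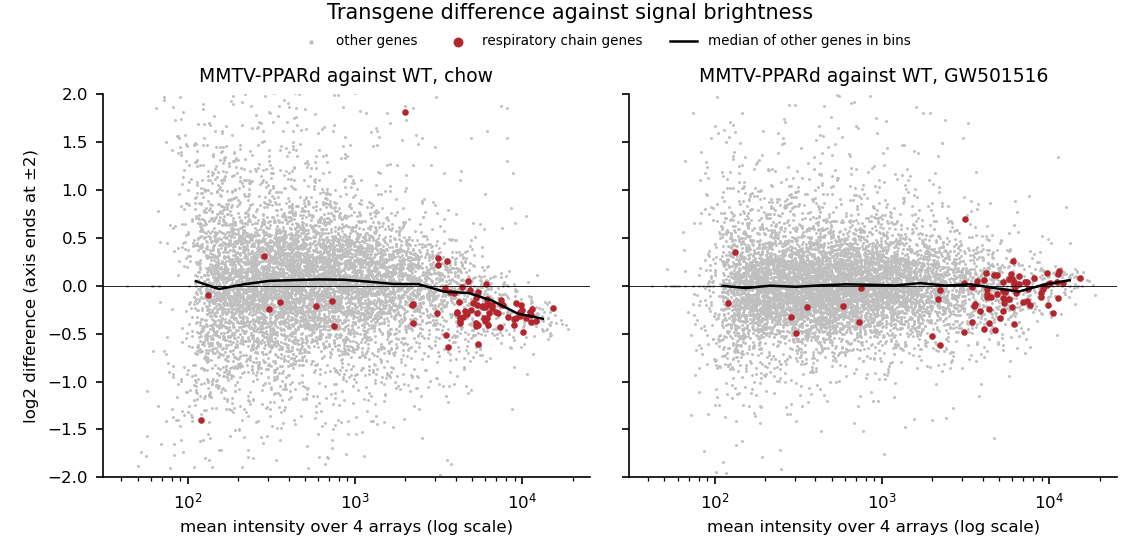
Log2 difference of MMTV-PPARd against WT on chow (left) and on GW501516 (right) for each gene, against its mean intensity over the 4 arrays on a log axis, with respiratory chain genes in red, other genes in grey and the binned median of the other genes as a line. On chow the line falls at high intensity, where most of the red points lie; on GW501516 it stays near 0.

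The order of the arrays describes the same values gene by gene. The MMTV-PPARd chow array was the lowest of the 4 for 62 of the 80 genes, beside 27.4% of all genes. Bright genes outside the set were also mostly lower on it than on WT chow (288 of 392). The count of 62 was not repeated with the other scalings. Both MMTV-PPARd arrays were below both WT arrays for 40 of 80 (beside 18.0% of all genes), and above them for 1, the complex I subunit Ndufc2 (beside 20.9%). Both GW501516 arrays were above both chow arrays for 21 of 80 (26.2%, beside 15.3% of all genes), of which 10 encode ATP synthase subunits. They were below for 2 of 80, Cox7a2l and the complex III hinge protein Uqcrh (beside 21.3%). These counts depended on the scaling: 10 genes were above and 9 below after quantile normalization, and 7 above and 11 below with bright-gene centring. That centring also left 26 genes with both MMTV-PPARd arrays below both WT arrays. The shares of all genes in these orders are not given for the other scalings, so these counts cannot be set against them. Arrays 2 against 2 allow no exact permutation p below 0.333.

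**Figure D3:**
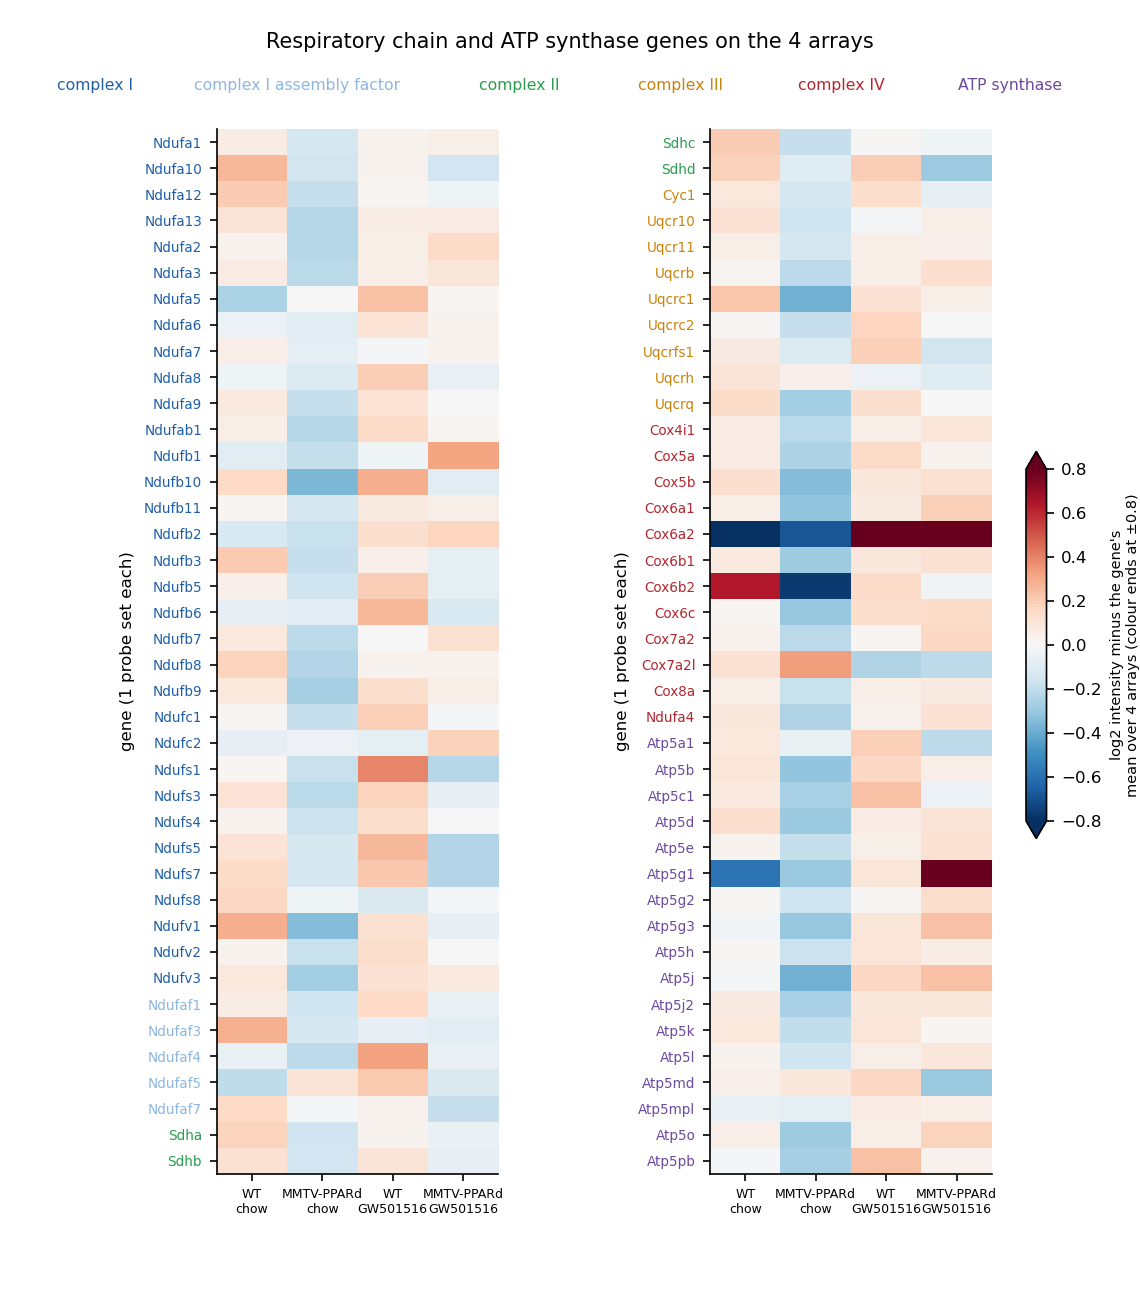
Log2 intensity of each of the 80 genes on the 4 arrays minus that gene's mean over the arrays, with names coloured by complex and colours ending at ±0.8. The MMTV-PPARd chow column is blue for most genes, while Cox7a2l is red there.

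Complex I, the NADH dehydrogenase, was represented by 33 subunit genes. Its medians were 0.055 with GW501516 in WT (-0.041 with bright-gene centring), 0.18 with GW501516 in MMTV-PPARd (0.018 after quantile normalization), -0.24 for the transgene on chow (-0.16 after it) and -0.11 for the transgene on GW501516. In the last of these, 23 of 33 genes were below 0 as deposited, 23 after quantile normalization and 19 with bright-gene centring.

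Ndufs1 encodes the largest core subunit, which carries iron-sulfur clusters. Its intensity was 2209 on WT chow, 1932 on MMTV-PPARd chow, 2868 on WT GW501516 and 1863 on MMTV-PPARd GW501516. The WT GW501516 array was the high one, and the log2 difference between genotypes on GW501516 was -0.62, a 1.54-fold lower value that became -0.55, short of 1.5-fold, with bright-gene centring. Ndufv1 encodes the core subunit that binds NADH and the flavin. It read 4329, 2785, 3852 and 3387 in the same order of arrays, 1.55-fold lower in MMTV-PPARd than in WT on chow. Its 2 other probe sets gave smaller log2 differences there, -0.34 and -0.33, and its value was -0.43 with the mean over probe sets and -0.49 with bright-gene centring, both short of 1.5-fold.

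Ndufa5, an accessory subunit, read 2940, 3510, 4115 and 3547, so that WT chow was low and WT GW501516 high. Its second probe set had the same order, with 2208, 2513, 2933 and 2731. Ndufb10, an accessory subunit of the membrane arm, read 3818, 2668, 4187 and 3230, with both MMTV-PPARd arrays below both WT arrays. Ndufc2, also of the membrane arm, read 5801, 5892, 5775 and 6906, and its highest value was on MMTV-PPARd GW501516.

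Of the other complex I genes at the ends of a comparison, Ndufs8 and Ndufa10 had log2 differences of -0.28 and -0.23 with GW501516 in WT. Ndufs5 had -0.49 and Ndufb1 had 0.35 for the transgene on GW501516, at low intensities of 256.3 to 360.6 and 115.2 to 163.3. Ndufb1 passed the filter only through MMTV-PPARd GW501516, its highest array, so its difference there is not independent of the filter. The 5 assembly factors had a median of -0.22 for the transgene on GW501516, with 5 of 5 below 0 as deposited and 4 of 5 with bright-gene centring. Ndufaf5, an enzyme that modifies a subunit during assembly, read 247.9, 306.7, 329.5 and 263.3. GW501516 was thus higher than chow in WT (log2 0.41) and lower in MMTV-PPARd (-0.22). Ndufaf3 had -0.35 with GW501516 in WT, Ndufaf7 had -0.18 with GW501516 in MMTV-PPARd, and neither reached 1.5-fold.

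Complex II, succinate dehydrogenase, also belongs to the TCA cycle. All 4 of its genes were lower in MMTV-PPARd than in WT on both diets, with medians of -0.31 on chow and -0.13 on GW501516. None reached 1.5-fold by its brightest probe set. With bright-gene centring the medians were -0.16 and -0.053, and 1 of the 4 was above 0 on GW501516. Sdhd, a membrane anchor, read 3486 on WT chow, 2869 on MMTV-PPARd chow, 3506 on WT GW501516 and 2509 on MMTV-PPARd GW501516, and its log2 differences between genotypes were -0.28 and -0.48. Both MMTV-PPARd values lay below both WT values. A second, dimmer Sdhd probe set read 443.0, 536.6, 512.6 and 210.4, which is higher with the transgene on chow and lower on GW501516. The flavoprotein gene Sdha had log2 differences of -0.34 and -0.086, the iron-sulfur subunit gene Sdhb -0.27 and -0.17, and the other anchor, Sdhc, -0.39 and -0.042. A second Sdha probe set of similar brightness had -0.29 and -0.27. The dimmer second probe set of Sdhc read 605.4, 278.8, 620.0 and 524.5, with log2 differences of -1.12 and -0.24, the first of them past 1.5-fold.

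Complex III, the cytochrome bc complex, had 9 genes, of which 9 were lower in MMTV-PPARd on chow (median -0.22) and 7 on GW501516 (median -0.066). After quantile normalization 7 were lower on chow, with a median of -0.054, and with bright-gene centring the median on GW501516 turned to 0.0074. Uqcrc1, a core subunit, read 6259, 4104, 5800 and 5540 on the 4 arrays. Only its MMTV-PPARd chow value stood apart, 1.53-fold below WT chow, a log2 difference that was -0.51 after quantile normalization and -0.46 with bright-gene centring, both short of 1.5-fold. The other core subunit, Uqcrc2, had log2 differences between genotypes of -0.19 on chow and -0.16 on GW501516. Uqcrfs1, the Rieske iron-sulfur protein, had -0.18 and -0.34, and Cyc1, the heme-bearing cytochrome subunit, had -0.22 on both diets. Uqcrh read 5814, 5564, 5246 and 5066, with both GW501516 arrays below both chow arrays and log2 differences of -0.15 for GW501516 in WT and -0.14 in MMTV-PPARd, which did not reach 1.5-fold.

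Complex IV, cytochrome c oxidase, had 12 genes past the filter, Ndufa4 included, which is now assigned to this complex. Its medians were -0.0064 with GW501516 in WT and 0.39 with GW501516 in MMTV-PPARd. The second value was 0.065 after quantile normalization and 0.23 with bright-gene centring. Between genotypes the median was -0.31 on chow and 0.030 on GW501516, which became -0.064 and -0.017 after quantile normalization. The subunit gene Cox5a had log2 differences with GW501516 of 0.087 in WT and 0.27 in MMTV-PPARd, and Cox5b had -0.044 and 0.47.

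Cox6a2, the isoform of heart and skeletal muscle, moved more than any other gene of the set. Its intensity was 202.6 on WT chow, 713.8 on MMTV-PPARd chow, 4149 on WT GW501516 and 2879 on MMTV-PPARd GW501516. Both GW501516 arrays were far above both chow arrays, 20.5-fold in WT and 4.03-fold in MMTV-PPARd. The transgene difference was 3.52-fold higher on chow and log2 -0.53 on GW501516. Skeletal muscle markers moved with it. All 21 were at least 1.5-fold higher with GW501516 in both genotypes and with the transgene on chow, with median log2 differences of 3.89, 2.08 and 1.55, and -0.21 for the transgene on GW501516. Myoglobin (Mb) read 85.6, 912.8, 4056 and 3548, and the mitochondrial creatine kinase of striated muscle, Ckmt2, read 45.5, 387.9, 2436 and 1736. The myosin gene Myh2 read 11.8 on WT chow, below the signal floor of 20.5. The part of muscle RNA in the Cox6a2 result was not tested.

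Cox6a1, the isoform of other tissues, did not share this pattern. It read 11629, 8978, 11768 and 12793, with log2 differences for GW501516 of 0.017 in WT and 0.51 in MMTV-PPARd. The 2 isoforms left out by the rule were closer to Cox6a1 in this respect. Cox7a1 read 2258, 2290, 3012 and 2052, and Cox8b read 6911, 6298, 6684 and 5486, neither reaching 1.5-fold in a comparison of 1 factor. Both are also genes of brown adipocytes, whose marker Ucp1, the uncoupling protein, read 3316, 4658, 5046 and 2264. Another marker, Cidea, a lipid droplet protein, read 5806, 4721, 5537 and 9454, highest where Ucp1 was lowest. The 8 brown adipocyte markers measured summed to between 18970 and 21397 on the 4 arrays, a sum that holds these opposed members. The list also includes Cox7a1 and Cox8b, which made up 9169 of the 18970 on WT chow, so the sum is not independent of them.

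Cox7a2l was the gene of the set most clearly lower with GW501516. It read 3324 on WT chow, 3861 on MMTV-PPARd chow, 2599 on WT GW501516 and 2653 on MMTV-PPARd GW501516. Both GW501516 arrays lay below both chow arrays, and the log2 differences were -0.35 in WT and -0.54 in MMTV-PPARd, short of 1.5-fold. Its 2 other probe sets had the same separation, with 2530, 2685, 2025 and 2023 for one and 3017, 3471, 2628 and 2443 for the other. Over 10 alternative settings its GW501516 differences ranged from -0.45 to -0.29 in WT and from -0.71 to -0.47 in MMTV-PPARd. Only the other scalings and the mean over probe sets could change these values. Probe sets of 1 gene share the same RNA pools and are not replicates. Cox7a2, the related subunit gene, read 11648, 9831, 11499 and 12804, with -0.019 and 0.38.

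The remaining isoforms were low or close to even. Cox6b2, known as the testis isoform, read 175.7, 66.3, 125.6 and 110.8, where the MMTV-PPARd chow value was the low one, a log2 difference of -1.41 from WT chow. Only its WT chow value was above the filter of 139, so this difference is not independent of the filter. The bioB control probe sets, at 292.7 or more on WT chow, were also low on MMTV-PPARd chow. Ndufs5 and Ndufb1, members of low signal, had log2 differences of -0.24 and -0.099 between the same 2 arrays. Whether the low Cox6b2 and bioB values have a common source was not tested. Cox6b1, its ubiquitous partner, read 12638, 9832, 12777 and 13040. Cox4i1 read 11658, 9612, 11556 and 11896, with -0.013 and 0.31 for GW501516, and Cox8a had -0.00021 and 0.26. Cox4i2, an isoform of lung and of low oxygen, read 14.2, 15.5, 27.2 and 20.3 and did not pass the filter, as did not Cox8c (64.6 to 98.3). Cox7c, which is not a tissue isoform, also did not pass, with 58.4 to 88.6 on the brighter of its 2 probe sets. Whether these probe sets measure its RNA well was not tested, so no level of Cox7c is drawn from them.

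**Figure D4:**
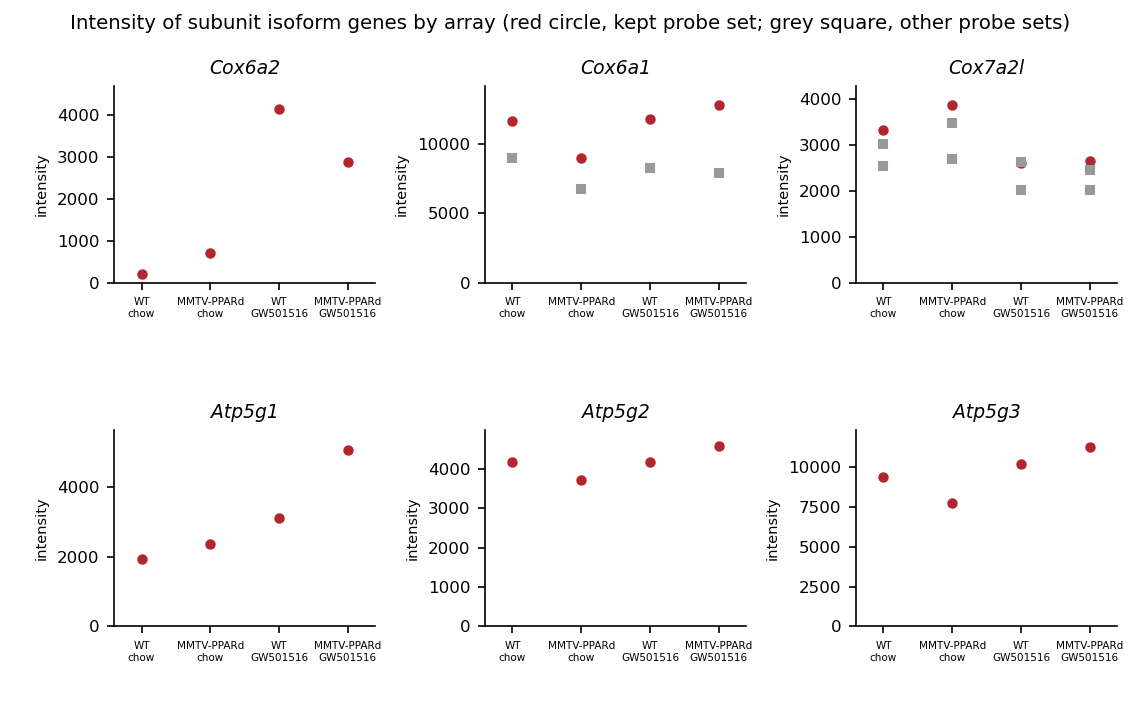
Intensity (linear, from 0) on each of the 4 arrays for 3 complex IV genes and the 3 genes of the ATP synthase c subunit, with the kept probe set as red circles and other probe sets past the filter as grey squares. Cox6a2 is high on both GW501516 arrays, Cox7a2l is low on both in each of its 3 probe sets, and Atp5g1 is highest on MMTV-PPARd GW501516.

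The ATP synthase had 17 genes past the filter. Its medians were 0.089 with GW501516 in WT, with 15 of 17 above 0 (8 of 17 with bright-gene centring), and 0.30 in MMTV-PPARd, also with 15 of 17 above 0 (0.070 with 12 of 17 after quantile normalization). For the transgene they were -0.26 on chow (-0.080 after quantile normalization) and 0.0014 on GW501516.

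Atp5g1 read 1937 on WT chow, 2371 on MMTV-PPARd chow, 3119 on WT GW501516 and 5055 on MMTV-PPARd GW501516. Both GW501516 arrays were above both chow arrays and, on each diet, MMTV-PPARd was above WT. The agonist difference was 1.61-fold in WT and 2.13-fold in MMTV-PPARd, the transgene difference on GW501516 was 1.62-fold, and MMTV-PPARd GW501516 was 2.61-fold above WT chow. Over the 10 alternatives the log2 difference stayed between 0.59 and 0.69 for GW501516 in WT and between 0.68 and 0.77 for the transgene on GW501516. Only the other scalings could change these values, so the ranges rest on those settings alone. Atp5g1 has 1 probe set, so no second one checks it.

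Its partners did not reach 1.5-fold. Atp5g2 read 4183, 3713, 4179 and 4574, with log2 differences of -0.0012 and 0.30 for GW501516 in WT and MMTV-PPARd. Atp5g3 read 9426, 7781, 10242 and 11260, with 0.12 and 0.53. Milk protein genes, which mark secretory epithelium, also had their highest sum on MMTV-PPARd GW501516. The 10 measured summed to 18247, 46347, 47757 and 107998, and their part in the Atp5g1 result was not tested.

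Atp5j, a subunit of the stalk, read 5857, 4527, 6623 and 6973, 1.54-fold higher with GW501516 in MMTV-PPARd, a log2 difference that was 0.47 after quantile normalization and 0.46 with bright-gene centring, both short of 1.5-fold. Here the MMTV-PPARd chow value was the low one, and in WT the log2 difference was 0.18. Atp5md, a small membrane subunit, read 4811, 4991, 5256 and 3819, where the low value was on MMTV-PPARd GW501516, with log2 differences of -0.39 for GW501516 and -0.46 for the transgene. The catalytic beta subunit gene, Atp5b, had log2 differences between genotypes of -0.41 on chow and -0.12 on GW501516. The alpha subunit gene, Atp5a1, had -0.14 and -0.40, and the gamma subunit gene, Atp5c1, had -0.34 and -0.28. A second Atp5a1 probe set of similar brightness had -0.083 and -0.21, and a dim one (130.2 to 307.5) had -0.88 and -0.29. Atp5d, the delta subunit gene, had -0.43 and 0.036.

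How far probe sets of one gene differed sets a scale for single values. For 40 genes with 2 or more probe sets past the filter, the kept probe set and the median of the others differed with an SD of 0.14 for GW501516 in WT, 0.34 for GW501516 in MMTV-PPARd, 0.21 for the transgene on chow and 0.24 for the transgene on GW501516. The signs matched for 27, 32, 36 and 25 of the 40 genes. For the difference between the GW501516 effects the SD was larger, 0.37, and the signs matched for 26 of the 40. Log2 differences of these sizes between single genes are therefore within the spread of probe sets.

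Other mitochondrial genes did not all move with the respiratory chain. The TCA cycle genes (12 of 13 measured) had medians of -0.31 on chow and -0.30 on GW501516 for the transgene, with 10 of 12 below 0 on each diet and 0 of 12 past 1.5-fold. The count of 10 of 12 held on both diets after quantile normalization, with one median for all arrays and with bright-gene centring. Fatty acid oxidation genes (18) had -0.19 and -0.20, and white adipocyte markers (9 measured) had -0.47 and -0.34, with summed intensities of 65394, 47993, 69985 and 66345. The part of adipocyte RNA in the lower values was not tested. Mitochondrial ribosomal protein genes (74) had -0.0098 and 0.011, and import genes (21) -0.0025 and 0.010, values that became 0.13 and 0.084, and 0.14 and 0.084, with bright-gene centring.

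Among genes that work directly with the chain, the electron carriers and ATP exporters (7) had medians of 0.20 with GW501516 in WT and 0.31 in MMTV-PPARd (0.025 after quantile normalization). Slc25a4, the adenine nucleotide carrier of heart and muscle, read 5624, 5777, 10233 and 9290, 1.82-fold and 1.61-fold higher with GW501516. Slc25a5, the carrier of other tissues, had log2 differences of -0.16 and 0.095. Cycs, cytochrome c, read 8180, 8000, 10930 and 8943. Assembly and insertion factors (14 of 20 measured) had medians of -0.023 and -0.085 with GW501516. Regulators of mitochondrial biogenesis (9 of 11 measured) had 0.099 and -0.17. Among them Ppargc1a, a coactivator that drives respiratory genes, read 165.4, 130.9, 341.6 and 207.0, 2.06-fold and 1.58-fold higher with GW501516, and it is expressed in muscle as well.

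**Figure D5:**
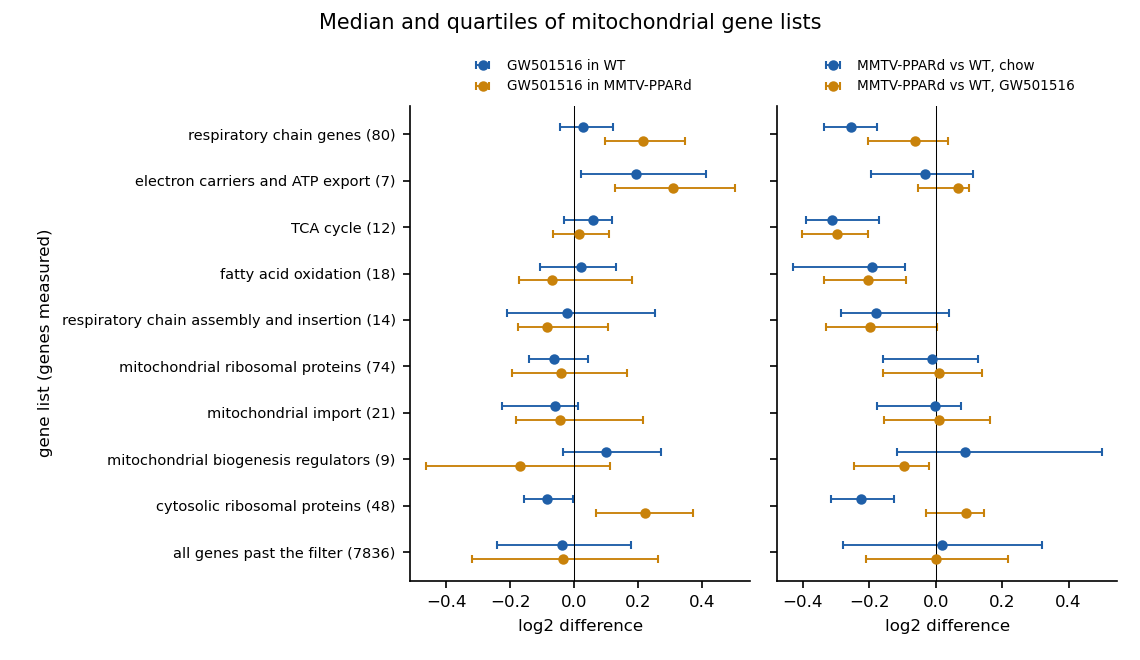
Median (points) and quartiles (bars) of the log2 differences in 10 gene lists, for GW501516 in each genotype (left) and for MMTV-PPARd against WT on each diet (right), with the number of genes measured in brackets. The respiratory chain and cytosolic ribosomal lists lie below 0 for the transgene on chow but not to that extent on GW501516, while the TCA cycle and fatty acid oxidation lists lie below 0 on both.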

How the data were processed

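The deposited table holds 1 intensity per probe set and array on a linear scale, and per the labels each array was hybridised with cRNA from RNA pooled from 5 mice. How probes were summarised into intensities is not given in the sources. The arrays have a common trimmed mean of 500.2 (2% trimmed at each end). Of 22690 probe sets, 20393 had 1 gene symbol in the platform annotation, 691 had several and 1606 had none listed. Values under the 25th percentile (20.5) were set to it, log2 differences were taken between arrays, and genes with at least 1 array at or above the median (139) were kept, so a gene high in 1 group could pass through that group alone. Cox6b2 passed only through WT chow and Ndufb1 only through MMTV-PPARd GW501516. Log2 and fold values were computed here from the deposited intensities. The number of arrays limits the precision.

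The genes described, the marker lists and the tests were chosen with earlier results of these data known. Genes are named where they were among the 5 highest or 5 lowest in a comparison, were isoform partners or c subunit genes, or were core subunits or Cox5a. Genes outside this rule (Uqcrh and the genes of other lists) are named as the members of small counts, as nearest relatives or as markers, and Slc25a4, Slc25a5, Cycs and Ppargc1a were chosen after their values were seen. Alternatives were another scaling (2 planned and bright-gene centring, added after seeing the data), 2 other floors, 2 other filters, the mean over probe sets, leaving out probe sets that can match several transcripts, and leaving out Cox6a2 and the assembly factors. The calculation was checked on simulated data. Python 3.11.15, pandas 2.3.3, NumPy 2.4.6 and SciPy 1.17.1 were used.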

Additional observations from a re-analysis of the deposited data

Results flagged for a closer look

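With 1 array per group, the following opposite directions were not tested. Cox6a2 was higher with the transgene on chow (log2 1.82) and lower on GW501516 (-0.53), a difference of -2.34. Cox6b2 was lower with GW501516 in WT (-0.48) and higher in MMTV-PPARd (0.74), a difference of 1.23, at intensities of 66.3 to 175.7. Cox6b2 passed the low-signal filter only through WT chow. Ndufaf5 was higher with GW501516 in WT (0.41) and lower in MMTV-PPARd (-0.22), a difference of -0.63. The same 4 values of Ndufaf5 give a transgene difference of 0.31 on chow and -0.32 on GW501516, again -0.63 apart.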

How the results depend on the processing

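Across 10 alternatives, 158 medians and counts stayed within 0.1 (log2) or within 1.5 times of the value as reported, 29 moved and 3 changed sign. After quantile normalization the median of the respiratory chain genes was -0.0067 for GW501516 in WT (reversed), 0.043 for GW501516 in MMTV-PPARd, -0.097 for the transgene on chow and 0.052 for the difference of GW501516 effects. There 1 gene was at least 1.5-fold lower with GW501516 in MMTV-PPARd, 10 genes had both GW501516 arrays above both chow arrays, 9 had them below, and 2 had both MMTV-PPARd arrays above both WT arrays. With bright-gene centring the medians were -0.068 for GW501516 in WT (reversed), 0.048 for GW501516 in MMTV-PPARd, -0.11 for the transgene on chow and 0.012 for the transgene on GW501516 (reversed). With it, 2 genes were higher and 1 lower with GW501516 in MMTV-PPARd, 1 was lower with the transgene on chow, 0 with the transgene on GW501516, 7 had GW501516 above chow, 11 below, 3 MMTV-PPARd above WT and 26 below. Shifting the arrays to one median gave 3 genes higher and 1 lower for the difference of GW501516 effects and 0 with MMTV-PPARd above WT. The filter at the 75th percentile gave 0 higher and 1 lower for that difference. The mean over probe sets gave 1 gene lower with GW501516 in MMTV-PPARd, 2 lower with the transgene on GW501516, 3 higher for the difference and a median difference of 0.10. Leaving out Cox6a2 and the assembly factors gave 1 higher with GW501516 in WT, 0 higher with the transgene on chow and 0 lower for the difference, which follows from the genes left out. For the other settings the cause was not tested. For the counts under these settings, the shares over all genes are not given here. No paired analysis was possible because each group has 1 array.

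Bright-gene centring shifted the median of all genes by more than 0.1 (to -0.13, -0.21, 0.17 and 0.077 in the 4 comparisons) and moved the share of all genes above 0 from 45%, 46.8%, 51.8% and 50.2% to 33.7%, 31.7%, 65.0% and 60.0%. Among single genes, 365 values were within 0.1 (log2) and 25 moved. Many of the settings, such as the floors and filters, could not change the value of a bright gene. Single arrays of pools give no measure of variation between mice.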
